A study of Mus musculus with 6 samples.

Results

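The 35 genes described here cover glucose and lactate transport, glycolysis and its regulators, and the pentose phosphate path. They were given by gene symbol, as members of the pathway, with earlier results of these data known, and all 35 were among the 23420 gene symbols counted. Of these members, 34 passed the filter on low counts, as did 14388 symbols in all. The exception was the enolase gene Eno1. The comparison asks which isoenzymes of the pathway differ in mRNA level between genotypes.

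A set of 3 TBK1-DKO libraries was compared with 3 wild-type (WT) libraries, all made from total RNA of dendritic cells taken fresh from the spleen of C57BL/6 mice. TBK1 is a kinase of innate immune signalling that phosphorylates interferon regulatory factors. The mice of both genotypes were 8 weeks old by the protocol and 10 weeks old by the sample characteristics. The sources used here do not spell out DKO or name the alleles, a Cre driver, the way the cells were isolated, or whether any animals were pooled. Separate animals are not stated for the libraries, so the p-values weigh differences against a spread among libraries that may be purely technical.

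Glycolysis breaks glucose down to pyruvate, and the pentose phosphate path branches off early to yield NADPH and ribose. Most steps have several isoenzymes, encoded by separate genes and expressed in different tissues. Dendritic cells are the antigen-presenting cells of the immune system, and those activated through Toll-like receptors are known to raise glycolysis and lactate release.

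Gene reads numbered 45018389 to 47349648 in the TBK1-DKO libraries and 31077585 to 36145508 in the WT libraries. Tbk1 itself had 79.2 to 83.9 CPM (reads of the gene per 1000000 gene reads after TMM scaling) in TBK1-DKO libraries and 80.8 to 90.7 CPM in WT libraries, with overlapping groups and an adjusted p of 0.63 in edgeR's quasi-likelihood test. The Tbk1 count therefore did not separate the labels, and reads in gene counts do not show which exons were present. Summed pan-dendritic-cell markers, Itgax and Flt3 among them, had 11697 to 13534 CPM in TBK1-DKO libraries and 11596 to 13267 CPM in WT libraries. Of these 8 markers, 2 rose, 1 fell and 5 did not pass the test. The list also holds the antigen presentation genes Cd74, H2-Ab1, H2-Eb1 and Ciita. A few genes can carry such a sum, so similar sums do not show similar dendritic cell content. The levels of TBK1-DKO replicate 2 and WT replicate 1 stood apart within their groups. TBK1-DKO replicate 2 held the highest TBK1-DKO level for 22 of the 34 tested members, and WT replicate 1 the lowest WT level for 22 of 34.

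Promoters were examined for the letters ACGTG, a form of the core of the element that hypoxia-inducible factor binds, and for CACGTG, an E-box. Other forms of that core were not searched, so windows without ACGTG may hold them. Sequences are from RefSeq (GRCm38.p6), reading 250 bases before the annotated start 5′ to 3′ on the gene's strand. Capitals mark each ACGTG on either strand, where CACGTG counts on both strands. The windows of Hk1, Slc16a1, Pfkfb3 and Eno3 are shown because these members differed between the genotypes, and those of Hk2 and Ldha because these isoenzymes did not pass the test. The window of Hk1 lay at chr10:62379909-62380158 (minus strand), that of Hk2 at chr6:82774455-82774704 (minus strand) and that of Slc16a1 at chr3:104638414-104638663 (plus strand). The window of Pfkfb3 lay at chr2:11502091-11502340 (minus strand, the second of its listed starts), that of Ldha at chr7:46845554-46845803 (plus strand) and that of Eno3 at chr11:70656926-70657175 (plus strand).
Hk1: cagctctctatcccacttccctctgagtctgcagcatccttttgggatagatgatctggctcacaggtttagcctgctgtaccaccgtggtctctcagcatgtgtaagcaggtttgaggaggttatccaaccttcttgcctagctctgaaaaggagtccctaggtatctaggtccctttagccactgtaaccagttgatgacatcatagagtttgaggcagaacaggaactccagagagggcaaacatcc
Hk2: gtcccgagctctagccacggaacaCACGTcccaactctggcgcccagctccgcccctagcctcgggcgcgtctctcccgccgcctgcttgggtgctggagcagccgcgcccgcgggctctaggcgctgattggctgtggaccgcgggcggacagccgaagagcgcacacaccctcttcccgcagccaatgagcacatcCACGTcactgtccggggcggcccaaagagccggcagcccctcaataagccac
Slc16a1: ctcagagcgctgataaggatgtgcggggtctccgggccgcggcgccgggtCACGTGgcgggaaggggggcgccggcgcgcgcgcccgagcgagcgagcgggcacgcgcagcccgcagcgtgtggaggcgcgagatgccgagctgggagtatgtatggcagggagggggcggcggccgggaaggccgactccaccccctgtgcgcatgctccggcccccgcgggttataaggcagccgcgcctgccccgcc
Pfkfb3: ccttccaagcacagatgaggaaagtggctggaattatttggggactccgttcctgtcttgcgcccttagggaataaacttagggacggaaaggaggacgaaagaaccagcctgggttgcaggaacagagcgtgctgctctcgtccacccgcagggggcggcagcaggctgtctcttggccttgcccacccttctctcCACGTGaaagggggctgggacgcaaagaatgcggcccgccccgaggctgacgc
Ldha: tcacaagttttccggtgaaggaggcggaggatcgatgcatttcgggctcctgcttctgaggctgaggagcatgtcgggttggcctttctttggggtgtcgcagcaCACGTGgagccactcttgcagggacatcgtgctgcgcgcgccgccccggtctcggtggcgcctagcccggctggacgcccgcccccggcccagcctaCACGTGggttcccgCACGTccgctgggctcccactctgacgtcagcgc
Eno3: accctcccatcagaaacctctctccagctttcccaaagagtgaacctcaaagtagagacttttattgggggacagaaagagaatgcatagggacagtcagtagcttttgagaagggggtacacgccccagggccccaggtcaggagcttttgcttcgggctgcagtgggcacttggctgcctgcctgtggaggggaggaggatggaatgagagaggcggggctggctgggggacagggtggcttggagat

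The printed windows of Hk1 and Eno3 held no ACGTG, though a second listed Hk1 promoter, at chr10:62340372-62340671, held 2. The printed windows of Slc16a1 and Pfkfb3 each held 1 CACGTG. The first listed Pfkfb3 promoter, at chr2:11553880-11554179 and not printed, held 1 ACGTG and no CACGTG. The Ldha window held 2 copies of CACGTG and a further ACGTG on the minus strand. Over 300 bases per promoter (250 before and 50 after the start), ACGTG occurred in 19 of the 34 members with a listed promoter (55.9%). It occurred in 28.2% of the 10610 tested genes with a listed promoter. Counted per promoter in place of per gene, it occurred in 45.8% of the 48 member promoters and in 19.6% of all 32851 promoters. These 32851 include promoters of genes not tested, so the 2 backgrounds differ. Per gene, ACGTG occurred in 21.8% of all 27025 genes with a listed promoter, tested or not. CACGTG occurred in 4 of 34 members (11.8%) and in 11.2% of those tested genes. The letters ACGTG stood in the promoters of 5 of 9 members higher in TBK1-DKO cells, 1 of 3 lower members and 13 of 21 that did not pass the test. These matches describe letters and not binding.

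Of the 34 tested members, 9 rose in TBK1-DKO cells, 3 fell and 22 did not pass the test. The 9 include Fbp1, which passed the filter on low counts only through its TBK1-DKO libraries. A call means a p under 0.05 in edgeR's quasi-likelihood test after Benjamini-Hochberg adjustment over all 14388 genes. Over all genes tested, 23.6% were called, 13.7% upward and 9.9% downward, against 35.3%, 26.5% and 8.82% of the tested members. With length and GC trends removed, 2385 genes rose and 2650 fell over all genes tested, in place of 1978 and 1424, and 10 members rose and 4 fell. The groups did not overlap for 18 of the 34 members (52.9%), against 41.1% of all genes tested. The median log2 fold change (TBK1-DKO over WT) was 0.08 for the members and 0.0015 for all genes tested. Without WT replicate 2, 5 members rose and 1 fell; 1 also fell without TBK1-DKO replicate 1, without TBK1-DKO replicate 3 and without WT replicate 3. Without both TBK1-DKO replicate 2 and WT replicate 1, 16 rose and 8 fell, while calls over all genes numbered 6897 in place of 3402. Both libraries stood apart within their groups, so leaving them out narrows the spread by choice.

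**Figure D1:**
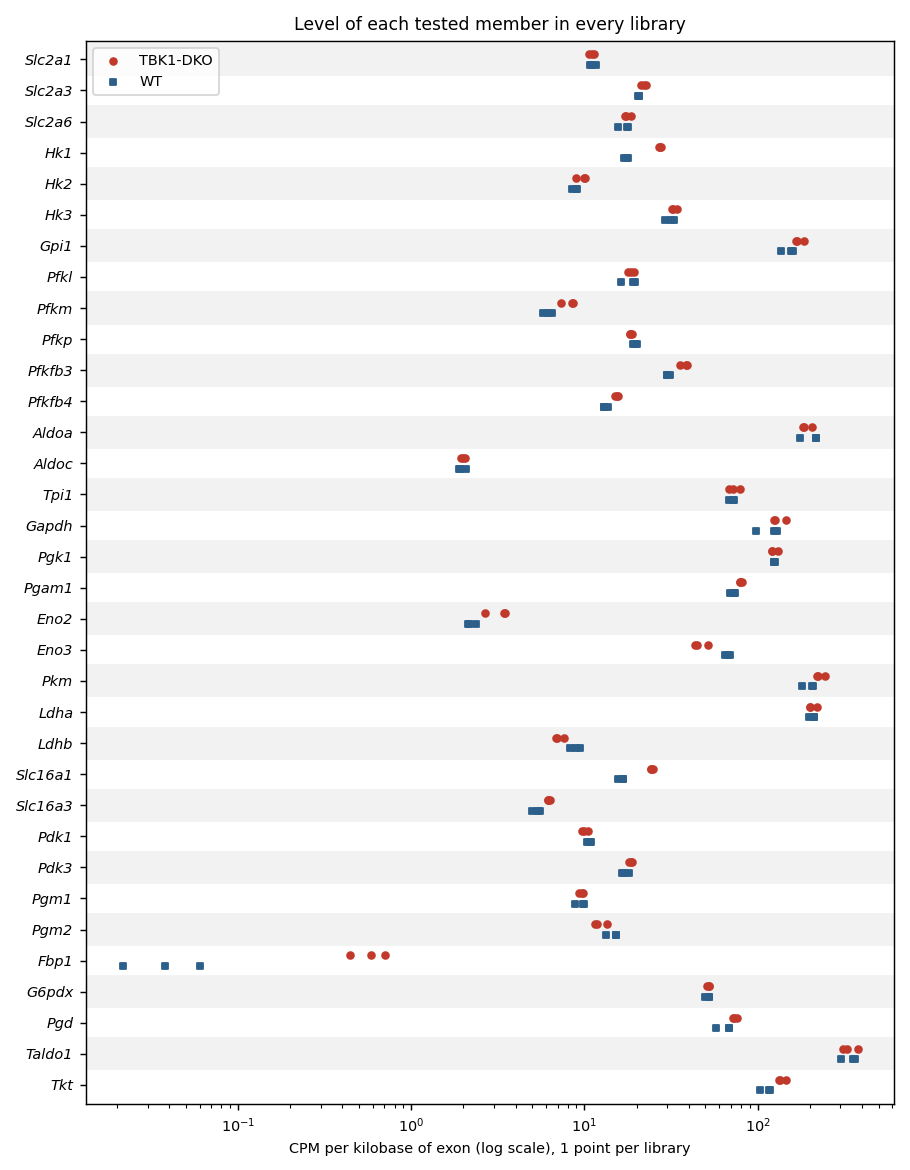
Level of each tested member in CPM per kilobase of exon (log axis), 1 point per library, with TBK1-DKO as circles above WT as squares. Hk1, Slc16a1 and Fbp1 lay apart to the right in all 3 TBK1-DKO libraries and Eno3 to the left, while most other members lay close together in both genotypes.

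**Figure D2:**
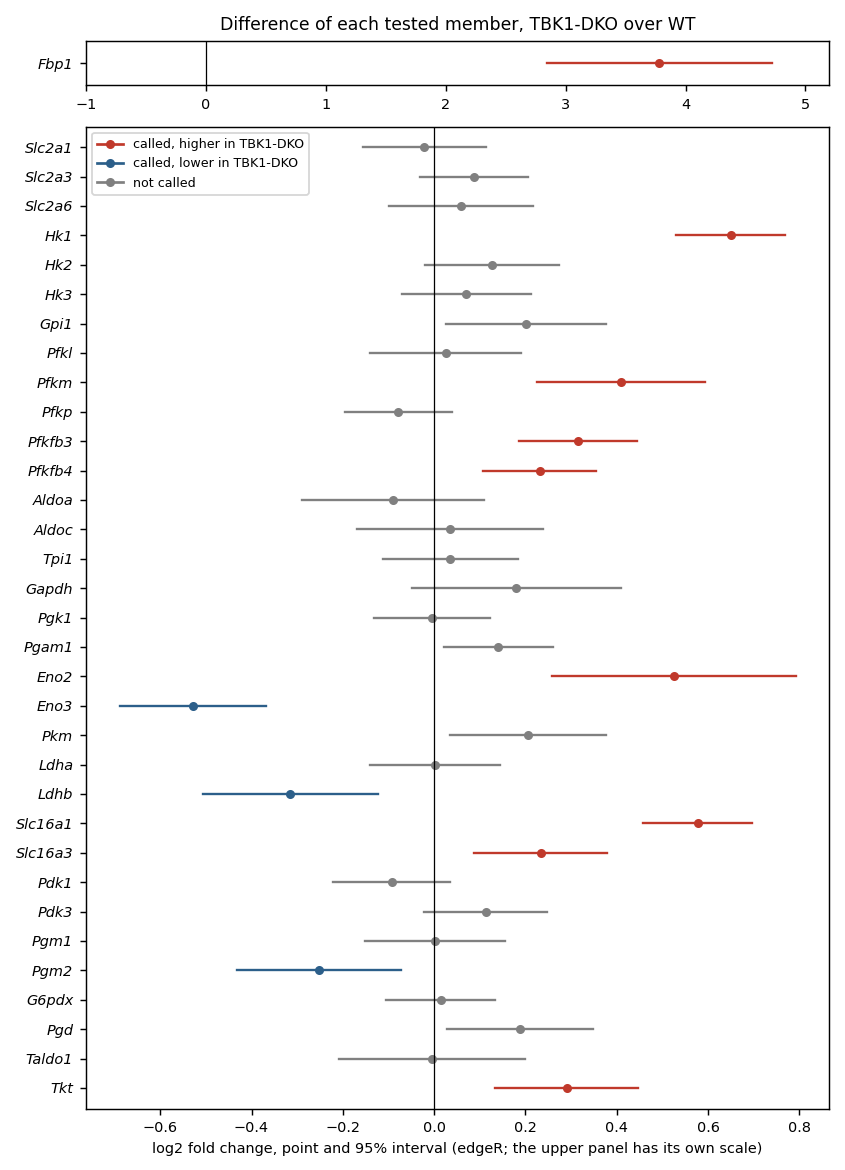
Log2 fold change of each tested member, TBK1-DKO over WT, with 95% intervals from edgeR; Fbp1 has a panel and scale of its own. The 9 called rises run from 0.23 to 3.78 and the 3 called falls from -0.53 to -0.25.

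Markers of other cell types also differed between the genotypes. All 11 measured neutrophil markers rose, with summed levels of 5768 to 6653 CPM in TBK1-DKO libraries and 2380 to 2657 CPM in WT libraries. All 9 tested erythroid markers rose (3215 to 3388 CPM in TBK1-DKO libraries, 1886 to 2122 CPM in WT libraries); the globin gene Hbb-b1 was listed at 0 reads in every library and Hba-a1 had 1 read in all. All 10 proliferation markers rose (2121 to 2479 CPM in TBK1-DKO libraries, 1268 to 1490 CPM in WT libraries), as did all 7 plasma cell markers (1973 to 2167 CPM, against 1231 to 1383 CPM in WT) and all 6 megakaryocyte markers (32.1 to 33.2 CPM, against 16.9 to 18.8 CPM in WT). All 10 entries of the macrophage list fell, with 4316 to 4813 CPM in TBK1-DKO libraries and 6212 to 6817 CPM in WT libraries. The gene Emr1 (Adgre1) was entered under both its symbols, so it is repeated in this count and in these sums. Plasmacytoid dendritic cell markers fell in 5 of 6 cases, with 707 to 740 CPM in TBK1-DKO libraries and 940 to 955 CPM in WT libraries. Natural killer cell markers fell in 5 of 5 cases (129 to 140 CPM in TBK1-DKO libraries, 184 to 219 CPM in WT libraries), T cell markers in 5 of 6 and B cell markers in 3 of 6. Of 6 markers each of conventional dendritic cells of type 1 and type 2, 4 fell in the type 1 list, and 1 rose and 2 fell in the type 2 list. Apart from Hbb-b1, no marker in these lists was at 0 in every library. The part of these cell types in the member changes was not tested, and in bulk samples fewer cells of a type and less RNA per cell cannot be told apart.

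None of the 3 glucose transporters among the members passed the test, whereas Slc2a4, a transporter outside them, rose (described with the other pathway genes). Slc2a1 (GLUT1), the basal glucose transporter of many cells, averaged 35.8 ± 1.10 CPM in TBK1-DKO cells and 36.4 ± 1.33 CPM in WT cells (SD, n = 3 each). Its log2 fold change was -0.02, with a 95% interval of -0.16 to 0.11. Slc2a3 (GLUT3), a high-affinity transporter, averaged 86.7 ± 3.003 CPM in TBK1-DKO cells and 81.6 ± 0.63 CPM in WT cells (log2 fold change 0.09, interval -0.03 to 0.21). Slc2a6, a further family member found in myeloid cells, averaged 37.9 ± 1.65 CPM in TBK1-DKO cells and 36.4 ± 2.65 CPM in WT cells (log2 fold change 0.06).

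Hk1, a hexokinase that commits glucose to the cell by phosphorylating it, rose in TBK1-DKO cells, and the other hexokinases did not pass the test. The gene lies on the minus strand of GRCm38 at chr10:62268855-62379908, in the same direction as the window printed above. Hk1 had 131.2, 133.1 and 135.1 CPM in TBK1-DKO replicates 1, 2 and 3, against 86.8, 81.8 and 86.0 CPM in WT replicates 1, 2 and 3. Every TBK1-DKO library lay above every WT library by more than the spread within either group. The log2 fold change was 0.65 (SE 0.05), with an adjusted p of 2.1e-05 in edgeR's quasi-likelihood test. Hk2, the isoenzyme best known as inducible, had 56.6, 49.9 and 56.1 CPM in TBK1-DKO libraries and 51.1, 47.8 and 50.1 CPM in WT libraries. These groups overlapped, and its log2 fold change was 0.13 (interval -0.02 to 0.27). Without TBK1-DKO replicate 2 Hk2 was called, with a log2 fold change of 0.16 and an adjusted p of 0.037 in edgeR's quasi-likelihood test. Hk3, an isoenzyme of blood cells, averaged 110.2 ± 4.24 CPM in TBK1-DKO cells and 104.9 ± 6.56 CPM in WT cells, with a log2 fold change of 0.07 (interval -0.07 to 0.21).

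Per kilobase of exon, Hk1 held 38.9%, 38.8% and 39.9% of the summed hexokinase level in the TBK1-DKO libraries, against 31.9%, 29.5% and 29.7% in the WT libraries. Its mean share was 39.2% ± 0.58 in TBK1-DKO cells and 30.4% ± 1.32 in WT cells (SD, n = 3 each), a difference of 8.85 percentage points. Hk3 was the most abundant of the 3 in each library, with shares of 47.0% ± 1.44 in TBK1-DKO cells and 54.3% ± 2.07 in WT cells. Shares were compared for 24 isoenzymes in 10 families by a two-sided exact permutation test, whose smallest possible p with 3 against 3 libraries is 0.1. That p was reached for 13 isoenzymes, whose groups did not overlap, and became 0.185 after Benjamini-Hochberg adjustment over the 24. Shares do not depend on scaling between libraries, and the members of a family are not independent because their shares sum to the whole. In the pairs Ldha and Ldhb, Slc16a1 and Slc16a3, and Pdk1 and Pdk3, each share mirrors the other. The 13 are therefore not separate results. No such count was made for shares over all genes. For levels, the groups did not overlap for 41.1% of all genes tested.

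**Figure D3:**
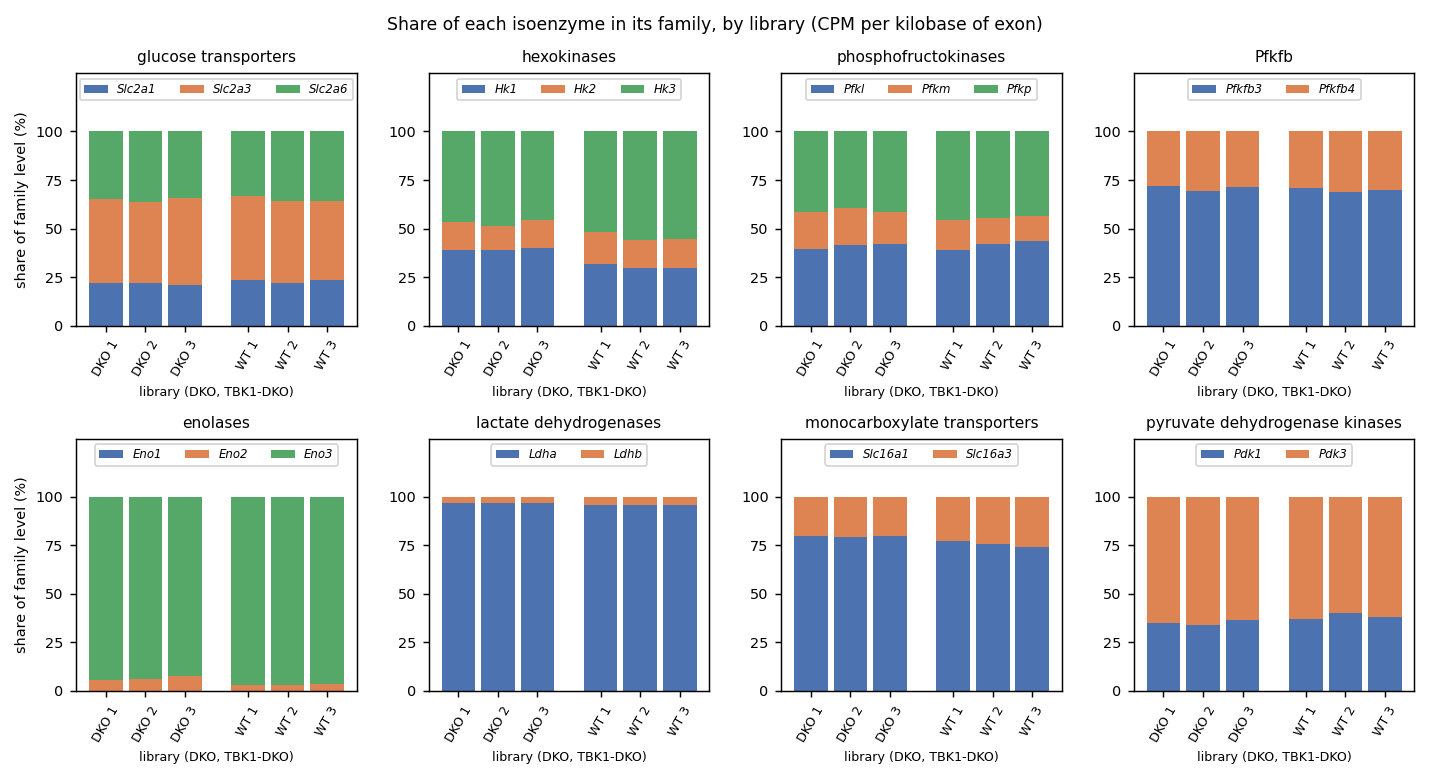
Share of each isoenzyme in the summed level of its family (percent, CPM per kilobase of exon), 1 bar per library, TBK1-DKO left of WT. Hk1 took 39.2% of the hexokinase level in TBK1-DKO cells and 30.4% in WT cells, while the Pfkfb shares overlapped. The enolase panel counts Eno1 by its few reads, which cannot be taken as its level.

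At the next steps, Gpi1, the isomerase that turns glucose phosphate into fructose phosphate, averaged 501.8 ± 30.5 CPM in TBK1-DKO cells and 436.4 ± 39.0 CPM in WT cells. Its log2 fold change of 0.20 did not pass the test, with an adjusted p of 0.094 in edgeR's quasi-likelihood test. Among the phosphofructokinases, which catalyse the committed step of glycolysis, only Pfkm passed. Pfkm, the isoenzyme named for muscle, had 25.3, 25.9 and 22.1 CPM in TBK1-DKO replicates 1, 2 and 3, against 19.5, 18.5 and 17.3 CPM in WT replicates 1, 2 and 3. All TBK1-DKO libraries lay above all WT libraries, with a log2 fold change of 0.41 (SE 0.08) and an adjusted p of 0.0053 in edgeR's quasi-likelihood test. Pfkl, the liver isoenzyme, averaged 69.5 ± 2.81 CPM in TBK1-DKO cells and 68.3 ± 6.44 CPM in WT cells, a log2 fold change of 0.03. Pfkp, the platelet isoenzyme, averaged 79.6 ± 0.96 CPM in TBK1-DKO cells and 84.1 ± 2.69 CPM in WT cells, a log2 fold change of -0.08 that did not pass the test.

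Per kilobase, Pfkm was the least abundant phosphofructokinase in both genotypes. It held 18.0% ± 1.18 of the family's level in TBK1-DKO cells and 13.99% ± 1.38 in WT cells (SD, n = 3 each). The share of Pfkp was 40.9% ± 1.13 in TBK1-DKO cells and 44.5% ± 0.93 in WT cells, without overlap, and the Pfkl shares overlapped at 41.1% and 41.5%.

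The members Pfkfb3 and Pfkfb4 rose. Pfkfb genes encode bifunctional enzymes that make and remove fructose bisphosphate of the regulatory kind, an activator of phosphofructokinase. Pfkfb3 (chr2:11471433-11554077, minus strand) had 216.1, 196.5 and 214.2 CPM in TBK1-DKO replicates 1, 2 and 3, against 171.9, 166.2 and 165.6 CPM in WT replicates 1, 2 and 3. The groups did not overlap, and the log2 fold change was 0.32 (SE 0.06), with an adjusted p of 0.0031 in edgeR's quasi-likelihood test. Pfkfb4 had 52.6, 54.9 and 54.1 CPM in TBK1-DKO libraries and 45.1, 47.4 and 45.1 CPM in WT libraries. These groups were apart as well, with a log2 fold change of 0.23 and an adjusted p of 0.013 in the same test. The adjusted p of Pfkfb4 was 0.051 without TBK1-DKO replicate 3, 0.051 without WT replicate 2 and 0.080 without WT replicate 3. The share of Pfkfb3 in the pair was 71.0% ± 1.47 in TBK1-DKO cells and 69.8% ± 0.90 in WT cells, with overlapping groups. Outside the members, Pfkfb2 averaged 39.3 ± 6.60 CPM in TBK1-DKO cells and 44.4 ± 4.11 CPM in WT cells (log2 fold change -0.18), and Pfkfb1 had a log2 fold change of 0.10. Neither passed the test, and both are named after their values were seen.

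No member from aldolase to phosphoglycerate mutase passed the test. With length and GC trends removed, Aldoa (log2 fold change -0.16) and Pgam1 (0.10) were called. They were also called without both TBK1-DKO replicate 2 and WT replicate 1, at -0.25 for Aldoa and 0.09 for Pgam1. Those libraries stood apart within their groups, so leaving them out narrows the spread by choice and these calls are no further support. Aldoa, the main aldolase, averaged 350.2 ± 24.0 CPM in TBK1-DKO cells and 372.7 ± 43.8 CPM in WT cells, a log2 fold change of -0.09. Its relative Aldoc held 1.03% of the aldolase level in TBK1-DKO cells and 0.95% in WT cells, per kilobase, with a log2 fold change of 0.04 in its own level. The triose phosphate isomerase Tpi1 had a log2 fold change of 0.04 and the phosphoglycerate kinase Pgk1 one of -0.0049 (interval -0.13 to 0.12). The phosphoglycerate mutase Pgam1 averaged 141.4 ± 2.29 CPM in TBK1-DKO cells and 128.2 ± 4.42 CPM in WT cells without overlap, a log2 fold change of 0.14. The dehydrogenase Gapdh had 187.1, 218.1 and 188.9 CPM in TBK1-DKO replicates 1, 2 and 3 and 146.4, 193.0 and 185.1 CPM in WT replicates 1, 2 and 3. The Gapdh groups overlapped, with TBK1-DKO replicate 2 the highest of all 6 libraries and WT replicate 1 the lowest.

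Counts of several of these genes come from part of their transcripts only, since reads that align to several places are left out of gene counts. Of all 50-base windows of the reference transcript, 82.5% of those of Gapdh, 68.0% of those of Pgk1, 41.5% of those of Pgam1, 30.5% of those of Pkm and 27.0% of those of Ldhb also occur in the transcripts of other loci. The share exceeded 10% for 10 members and was 0 for 20, Hk1, Slc16a1, Pfkm, Eno3, Fbp1 and Tkt among them. Levels of the 10 genes, which also include Gpi1 (19.6%), Ldha (16.6%), Aldoa (13.5%), Taldo1 (10.9%) and Eno1, are therefore uncertain.

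The enolases, which make phosphoenolpyruvate, differed in opposite directions. Eno3, known as the muscle enolase (chr11:70657202-70662513, plus strand), had 70.1, 81.2 and 68.3 CPM in TBK1-DKO replicates 1, 2 and 3, against 102.1, 108.4 and 106.3 CPM in WT replicates 1, 2 and 3. The TBK1-DKO libraries all lay below the WT libraries, with a log2 fold change of -0.53 (SE 0.07) and an adjusted p of 4.9e-04 in edgeR's quasi-likelihood test. Eno2, known as the neuronal enolase, had 7.45, 9.62 and 9.75 CPM in TBK1-DKO replicates 1, 2 and 3, against 6.04, 5.94 and 6.63 CPM in WT replicates 1, 2 and 3. Eno2 was the higher in each TBK1-DKO library, with a log2 fold change of 0.53 (SE 0.12) and an adjusted p of 0.0098, or 0.059 without WT replicate 2, in edgeR's quasi-likelihood test. Eno1, the enolase of most cells, had 1, 6 and 5 reads in TBK1-DKO libraries and 2, 5 and 0 reads in WT libraries. Of its 50-base windows, 72.2% occur in transcripts of other loci. These few reads cannot be taken as its level, and what set them was not tested. They did enter the enolase sums, with Eno1 shares of 0.068% in TBK1-DKO cells and 0.038% in WT cells. Eno1 was also among the 24 isoenzymes compared. The enolase shares therefore hold only for the reads counted and treat Eno1 as nearly absent. Of the enolase level that was counted, Eno3 held 93.5% ± 0.94 in TBK1-DKO cells and 96.8% ± 0.16 in WT cells (SD, n = 3 each).

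Pyruvate kinase and lactate dehydrogenase end the pathway. Pkm, which makes pyruvate, averaged 596.5 ± 34.0 CPM in TBK1-DKO cells and 517.3 ± 43.1 CPM in WT cells. Its log2 fold change of 0.21 did not pass the test (adjusted p 0.081 in edgeR's quasi-likelihood test), and gene counts do not separate its splice forms. Pkm was called with length and GC trends removed, at a log2 fold change of 0.12. Ldha, the subunit of lactate dehydrogenase that predominates in glycolytic cells, averaged 393.5 ± 21.3 CPM in TBK1-DKO cells and 392.9 ± 16.6 CPM in WT cells. Its log2 fold change was 0.0021, with an interval of -0.14 to 0.14; the promoter with 2 E-boxes printed above is its own. Ldhb, the subunit that predominates in heart, had 8.99, 9.94 and 9.09 CPM in TBK1-DKO replicates 1, 2 and 3, against 10.8, 12.4 and 11.7 CPM in WT replicates 1, 2 and 3. The groups did not overlap, and Ldhb fell by 0.31 on the log2 scale, with an adjusted p of 0.024 in edgeR's quasi-likelihood test. The adjusted p of Ldhb was 0.098 without TBK1-DKO replicate 1, 0.088 without TBK1-DKO replicate 3, 0.104 without WT replicate 2 and 0.069 without WT replicate 3. Ldhb made up 3.33% ± 0.01 of the lactate dehydrogenase level in TBK1-DKO cells and 4.12% ± 0.15 in WT cells, per kilobase.

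The lactate carriers Slc16a1 and Slc16a3 rose, while Slc16a7, a carrier of the same family outside the members, fell by 0.46 on the log2 scale (adjusted p 0.021, or 0.072 without WT replicate 1, in edgeR's quasi-likelihood test). Slc16a1 (MCT1), a monocarboxylate carrier that moves lactate in either direction (chr3:104638668-104658462, plus strand), had 109.7, 107.1 and 107.5 CPM in TBK1-DKO replicates 1, 2 and 3, against 74.1, 73.6 and 69.6 CPM in WT replicates 1, 2 and 3. The groups were far apart relative to their spread, with a log2 fold change of 0.58 (SE 0.05) and an adjusted p of 4.3e-05 in edgeR's quasi-likelihood test. Slc16a3 (MCT4), the carrier suited to lactate export, had 27.5, 28.1 and 27.4 CPM in TBK1-DKO libraries and 22.2, 23.9 and 24.6 CPM in WT libraries. These groups did not overlap either, with a log2 fold change of 0.23 and an adjusted p of 0.027 in the same test. The call of Slc16a3 was lost with trends in transcript length and GC content removed (adjusted p 0.051). It was also lost without TBK1-DKO replicate 1 (0.082), TBK1-DKO replicate 3 (0.073), WT replicate 1 (0.062), WT replicate 2 (0.111) or WT replicate 3 (0.061). Per kilobase, Slc16a1 held 79.7% ± 0.38 of the pair's level in TBK1-DKO cells and 75.6% ± 1.54 in WT cells.

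Neither pyruvate dehydrogenase kinase, which holds pyruvate back from the mitochondrial dehydrogenase, passed the test. Pdk1 averaged 52.0 ± 2.08 CPM in TBK1-DKO cells and 55.5 ± 1.46 CPM in WT cells, and Pdk3 39.2 ± 0.64 CPM in TBK1-DKO cells and 36.3 ± 1.75 CPM in WT cells. Their log2 fold changes were -0.09 for Pdk1 and 0.11 for Pdk3. The share of Pdk3 in the pair was 64.9% ± 1.26 in TBK1-DKO cells and 61.6% ± 1.40 in WT cells, without overlap.

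Fbp1, a fructose bisphosphatase of gluconeogenesis that reverses the phosphofructokinase step, was counted almost only in TBK1-DKO libraries. It had 41, 30 and 47 reads in TBK1-DKO replicates 1, 2 and 3, against 1, 2 and 3 reads in WT replicates 1, 2 and 3. Pooled over libraries, 118 reads in TBK1-DKO and 6 in WT gave a level 14.4 times as high, with a 95% counting interval of 6.41 to 39.97. Fbp1 passed the filter on low counts only through its TBK1-DKO libraries, so its test (adjusted p 1.3e-04 in edgeR's quasi-likelihood test) was conditioned on the difference and supports nothing beyond these reads. Its level was nonetheless the lowest of the tested members in both genotypes, at 0.58 CPM per kilobase in TBK1-DKO cells and 0.040 CPM per kilobase in WT cells.

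The phosphoglucomutases link glycolysis with glycogen. The row named Pgm2 averaged 29.1 ± 2.43 CPM in TBK1-DKO cells and 34.6 ± 2.44 CPM in WT cells, with overlapping groups. It fell by 0.25 on the log2 scale, with an adjusted p of 0.047 in edgeR's quasi-likelihood test. That p was 0.166 without TBK1-DKO replicate 1, 0.148 without TBK1-DKO replicate 3, 0.157 without WT replicate 2 and 0.142 without WT replicate 3. The row named Pgm1 had a log2 fold change of 0.0023. RefSeq lists each of these symbols as a synonym of the other, so which of the 2 loci each row counts is uncertain.

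Of the 4 pentose phosphate genes, Tkt alone passed the test. Tkt, a transketolase of the non-oxidative branch, had 432.7, 470.1 and 428.6 CPM in TBK1-DKO replicates 1, 2 and 3, against 333.3, 374.6 and 380.9 CPM in WT replicates 1, 2 and 3. The groups did not overlap, with a log2 fold change of 0.29 (SE 0.07) and an adjusted p of 0.014, or 0.060 without WT replicate 2, in edgeR's quasi-likelihood test. Without both TBK1-DKO replicate 2 and WT replicate 1, the log2 fold change of Tkt was 0.18. Taldo1, the transaldolase that acts beside it, averaged 464.4 ± 46.6 CPM in TBK1-DKO cells and 465.8 ± 45.6 CPM in WT cells. By the reads counted, Taldo1 was the highest member per kilobase in both genotypes. This order leaves out reads that align to several places, so members such as Gapdh and Pgk1 may stand too low in it. G6pdx, which catalyses the first oxidative step, had a log2 fold change of 0.01 (interval -0.11 to 0.13). Pgd, the second dehydrogenase of that branch, averaged 163.5 ± 4.67 CPM in TBK1-DKO cells and 143.5 ± 13.3 CPM in WT cells. Its log2 fold change of 0.19 did not pass the test (adjusted p 0.089 in edgeR's quasi-likelihood test).

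**Figure D4:**
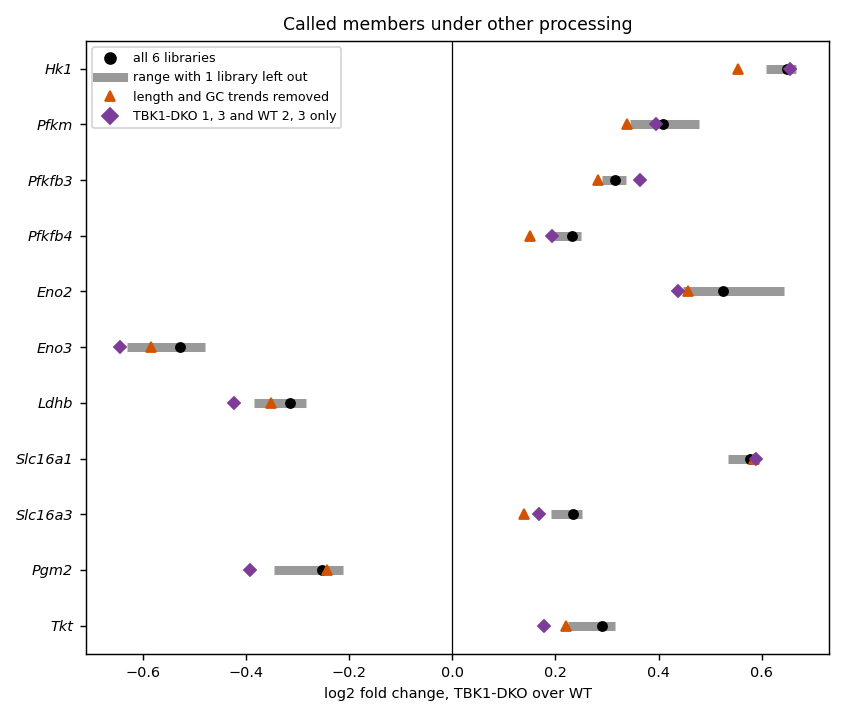
Log2 fold change (TBK1-DKO over WT) of the called members other than Fbp1 with all 6 libraries, with 1 library left out, with length and GC trends removed, and without TBK1-DKO replicate 2 and WT replicate 1. Every value kept its direction, and Hk1 lay between 0.55 and 0.67 over all settings.

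The called members kept their direction under the other processing that was tried, and Hk1, Pfkm, Pfkfb3, Eno3 and Slc16a1 kept their call as well. For Fbp1, which the stricter filter left out and the other filters admitted through its TBK1-DKO reads, a kept call or direction says nothing about stability. Without both TBK1-DKO replicate 2 and WT replicate 1, 12 further members were called. Of these, Pfkl (-0.09) and Ldha (-0.09) had a positive log2 fold change with all 6 libraries. The libraries left out were those that stood apart within their groups, so these further calls come with a spread narrowed by choice. Per kilobase, the WT levels ran from 341.5 for Taldo1, 207.3 for Ldha, 204.3 for Aldoa and 199.0 for Pkm down to 1.95 for Aldoc and 0.040 for Fbp1. Reads that align to several places are left out of these levels, so the order is uncertain for members such as Gapdh and Pgk1. The levels of Taldo1, Ldha, Aldoa and Pkm are affected as well.

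A list of 100 other genes of the pathway, chosen with earlier results of these data known, had 83 tested genes. Of these, 12 rose, 4 fell and 67 did not pass the test, and their median log2 fold change was 0.01. The share called was 19.3%, below the 23.6% of all genes. The glucose transporter Slc2a4 (GLUT4), known from insulin-responsive tissue, rose, with 11.2 ± 0.58 CPM in TBK1-DKO cells and 3.62 ± 0.44 CPM in WT cells (log2 fold change 1.63, adjusted p 6.0e-06 in edgeR's quasi-likelihood test). Pcx, the pyruvate carboxylase, had a log2 fold change of 0.86, and Pck2, a mitochondrial enzyme of gluconeogenesis, 0.42. Bpgm, an enzyme best known from red cells, rose with 116.9 ± 6.86 CPM in TBK1-DKO cells and 75.1 ± 0.80 CPM in WT cells. Pklr, the pyruvate kinase of liver and red cells, rose by 0.46 on the log2 scale. The erythroid markers above rose in the same libraries, and their part in these values was not tested.

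The ADP-dependent glucokinase Adpgk rose by 0.51 on the log2 scale, the phosphatase Minpp1 by 0.38 and Bsg, the chaperone of monocarboxylate carriers, by 0.34. The fall of Slc16a7 (MCT2), another such carrier, is given above with Slc16a1. Among glycogen genes, the phosphorylase Pygl had a log2 fold change of 0.24, the phosphorylase Pygb -0.24 and the pyrophosphorylase Ugp2 -0.25. Prps2, which turns ribose phosphate into a nucleotide precursor, fell by 0.29. Of 28 regulators, Mxi1, a partner of the Myc network (log2 fold change 0.28), and Keap1, which restrains the oxidative stress factor NRF2 (0.24), rose. Hif1a, the oxygen-regulated factor for which ACGTG was searched above, averaged 128.6 ± 11.8 CPM in TBK1-DKO cells and 144.2 ± 9.84 CPM in WT cells. Its log2 fold change of -0.16 did not pass the test. Myc (-0.0072) and Txnip, which limits glucose uptake (0.13), did not pass either. With length and GC trends removed, Hif1a (-0.15) and Txnip (0.12) were called. None of the 10 tested genes of pyruvate entry into mitochondria was called. Pdk2, named after its values were seen, was called with length and GC trends removed (-0.29).

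Some calls of these other genes were lost when a single library was left out, as adjusted p-values of edgeR's quasi-likelihood test show. That of Mxi1 was 0.055 without TBK1-DKO replicate 1, 0.053 without WT replicate 2 and 0.064 without WT replicate 3. That of Ugp2 was 0.086 without TBK1-DKO replicate 1, 0.089 without TBK1-DKO replicate 3, 0.058 without WT replicate 1 and 0.052 without WT replicate 3. That of Keap1 was 0.074 without TBK1-DKO replicate 1, 0.110 without TBK1-DKO replicate 3, 0.084 without WT replicate 1 and 0.140 without WT replicate 2. The value was 0.055 for Pygl without WT replicate 3, 0.053 for Pygb without WT replicate 2 and 0.072 for Slc16a7 without WT replicate 1.

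**Figure D5:**
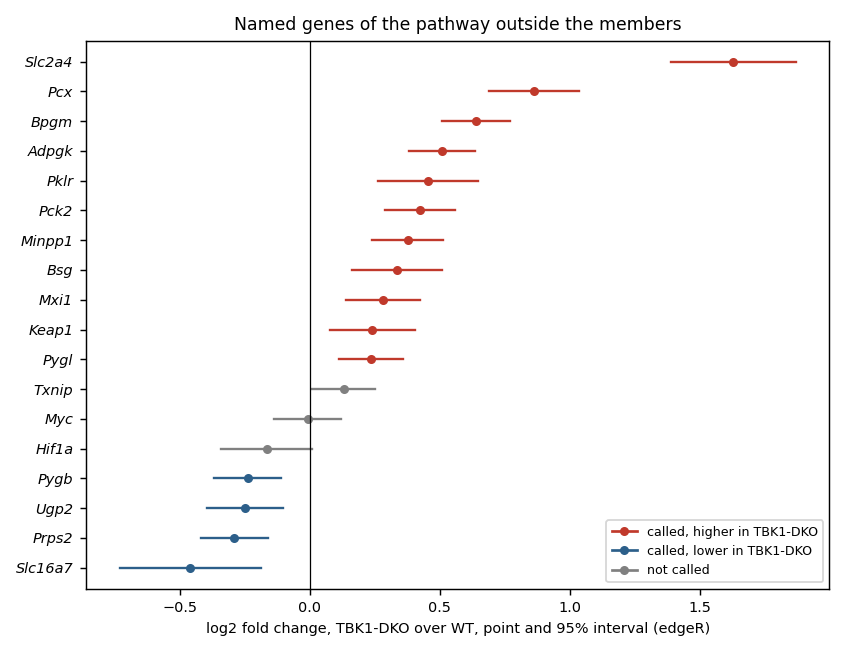
Log2 fold change (TBK1-DKO over WT) with 95% intervals of the pathway genes named outside the members. Slc2a4 lies farthest to the right at 1.63 and Slc16a7 farthest to the left at -0.46, while the intervals of Hif1a and Myc reach across 0.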

How the data were processed

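The authors deposited, for each of the 6 libraries, unscaled read counts per gene symbol. Per the submitters' processing notes, the tools were TopHat, TopHat2, HTSeq and DESeq2 and the build mm10. Versions, annotation and strand setting are not given in the sources, so overlapping genes on opposite strands cannot be separated. Rows that name no gene (9.96% to 10.7% of records in TBK1-DKO libraries, 8.20% to 8.67% in WT libraries) were left out.

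Counts were filtered with filterByExpr (minimum count 10), scaled by TMM (factors 0.996 to 1.012) and compared with edgeR 4.0.16 in R 4.3.3 by the robust quasi-likelihood test without covariates. P-values were adjusted by Benjamini and Hochberg over all 14388 genes, and called at 0.05. Standard errors came from the F statistic, levels are CPM as mean ± SD, and exon lengths and positions came from GENCODE M21 (GRCm38, the assembly of mm10). Of the 23420 symbols, 21777 matched it directly, 1275 by a RefSeq synonym and 368 not at all. Intervals of read ratios are exact binomial and cover counting error only. The fit was tested on simulated counts.

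Members and lists were chosen with earlier results of these data known. Every member is named; other pathway genes are named if called with a higher group mean of at least 5 CPM, up to 15 by smallest p, plus Hif1a, Myc, Txnip, Bpgm and Pklr. Alternatives were DESeq2 1.42.0, limma-voom (limma 3.58.1), other scaling and filters, a threshold of 0.01, thinned counts, length and GC offsets, a replicate block and left-out libraries. For shares they were reads not divided by length and whole families, and, added after the data were seen, exon length over all annotated transcripts. Figures were drawn with matplotlib 3.10.9.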

Additional observations from a re-analysis of the deposited data

Results flagged for a closer look

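Reads aligned to several places are kept out of the gene counts and entered no comparison. They made up 6.53%, 6.99% and 6.44% of the counted records in TBK1-DKO replicates 1, 2 and 3, against 5.43%, 5.74% and 5.72% in WT replicates 1, 2 and 3. Each TBK1-DKO value stands above every WT value, which is why it is given here. Such reads include those of Gapdh, Pgk1, Pgam1 and Eno1 that also match other loci, and the part of this difference in the counts of these members was not tested.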

How the results depend on the processing

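The 12 called members kept their direction under all 19 settings (18 for Fbp1, which the stricter filter left out), and 6 of them kept their call at 0.05, Fbp1 among them, which passed the filter only through TBK1-DKO reads. Settings of scaling, filter, test and dispersion other than those named here left the member counts at 8 or 9 up and 3 down. At adjusted p under 0.01, edgeR called 1996 genes in place of 3402, with 6 members up and 1 down. Length and GC offsets gave 5035 calls (2385 up and 2650 down, against 1978 up and 1424 down), with 10 members up and 4 down; Aldoa (-0.16), Pgam1 (0.10) and Pkm (0.12) were then called. The labels give no shared source for equal replicate numbers, so the numbers were not taken as pairs. Correlations of same-numbered samples were 0.18, 0.15 and -0.065, against -0.22 to 0.12 for samples of different numbers. With so few libraries, centred within each genotype, these correlations cannot decide whether the numbers pair. The replicate block gave 4086 calls, with 13 members up and 3 down (Gapdh, at 0.19, among those added), and 5272 calls together with the offsets, with 11 members up and 4 down. With libraries left out, singly or both TBK1-DKO replicate 2 and WT replicate 1, the calls ran from 2308 to 6897, members up from 5 to 16 and members down from 1 to 8. Single libraries alone gave 2308 to 4352 calls, 5 to 10 members up and 1 to 3 down. Sign changes occurred 60 times, in members and Myc not called with all 6 libraries, and 2 of them carried a call (Pfkl and Ldha without both libraries). With length and GC offsets, the log2 fold changes that changed sign were -0.031 for Slc2a6, -0.021 for Hk3, -0.074 for Pfkl, -0.0056 for Aldoc, -0.011 for Tpi1, -0.026 for Ldha, -0.013 for Pgm1 and -0.032 for G6pdx. With the replicate block added, they were -0.031 for Slc2a6, -0.021 for Hk3, -0.072 for Pfkl, -0.0053 for Aldoc, -0.011 for Tpi1, -0.026 for Ldha, -0.013 for Pgm1 and -0.032 for G6pdx. With DESeq2, they were -0.0043 for Ldha and -0.0042 for Pgm1. With RLE factors, they were -0.0051 for Ldha and -0.0050 for Pgm1. With upper-quartile factors, they were -0.019 for Ldha, -0.019 for Pgm1 and -0.0077 for G6pdx. With no filter, they were -0.011 for Ldha and -0.011 for Pgm1. With a stricter filter, they were -0.0040 for Ldha and -0.0037 for Pgm1. With TBK1-DKO counts thinned to WT depth, they were -0.011 for Ldha, -0.0087 for Pgm1 and -0.0054 for G6pdx. With libraries left out, they ran from -0.066 to 0.0010 for Slc2a1, -0.048 to 0.082 for Slc2a6, -0.022 to 0.094 for Hk3, -0.092 to 0.062 for Pfkl, -0.011 to 0.063 for Aldoc, -0.065 to 0.080 for Tpi1, -0.020 to 0.24 for Gapdh, -0.068 to 0.019 for Pgk1, -0.091 to 0.027 for Ldha, -0.066 to 0.031 for Pgm1, -0.026 to 0.026 for G6pdx, -0.18 to 0.053 for Taldo1 and -0.057 to 0.033 for Myc. Differences in share (percentage points, TBK1-DKO minus WT) changed sign for isoenzymes whose groups overlapped. They became 0.117 for Pfkl with reads not divided by length, and -0.344 for Slc2a3, -0.799 for Slc2a6 and 0.269 for Pfkfb4 within whole families. With libraries left out they ran from -1.96 to 0.643 for Pfkl and -1.46 to 0.714 for Slc2a6. The cause of these changes was not tested. The few reads of Fbp1 in WT libraries carry wide counting error, and with 3 libraries per group the exact permutation p of a share cannot go below 0.1.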
